A study of Rattus norvegicus with 36 samples.

Results

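Heat shock chaperones are the proteins that keep other proteins folded, and the genes described here are 9 of them together with Hsf1, the transcription factor that drives most of their induction. The list was made with earlier results of these data known. The 10 listed genes were Hspa1a, Hsph1, Hspa8, Hsp90aa1, Hspd1, Hspe1, Hspb1, Dnajb1, Hspa4 and Hsf1, found by symbol in the annotation of the array. Of these, 8 had at least 1 probe set (a group of short probes on the array that reads 1 transcript) that carried no other symbol, with 10 such probe sets in all, among 11509 genes tested. Hspa8 and Hsp90aa1 had probe sets that carry a second symbol as well and are given apart. All 8 genes passed the filter on dim probe sets.

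Mammary glands were taken from Cop (Copenhagen) and F344 (Fischer) rats that had received N-nitrosomethylurea (NMU), or saline vehicle as the control, when 55 days old. NMU alkylates DNA bases and gives rise to mammary carcinomas in susceptible rats. F344 is known as a susceptible strain and Cop as a resistant one. The 12 groups were Cop NMU, Cop control, F344 NMU and F344 control glands, each collected 6 h, 1 d or 30 d after treatment, with 3 arrays in each group and 36 in all. The sources used here give neither the dose of NMU nor whether arrays stand for separate animals.

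Cells keep Hsf1 inactive while the chaperones are free, and unfolded protein that occupies them releases it. Freed Hsf1 forms trimers that bind heat shock elements, which are inverted repeats of the unit GAA with a pair of bases between units, and raises transcription of the inducible chaperones. Hsp70 proteins such as Hspa1a bind exposed stretches of unfolded protein, Hsp40 proteins such as Dnajb1 deliver them, Hsp110 proteins such as Hsph1 reset the cycle by exchanging the nucleotide, and Hsp90 matures kinases and steroid receptors.

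Heat shock elements differed among the annotated promoters. The motif searched was 3 units in a row (GAA, any 2 bases, TTC, any 2 bases, GAA, or the reverse complement) or 2 units (GAA, any 2 bases, TTC, or TTC, any 2 bases, GAA), which covers both strands. Every match of 3 units also holds matches of 2. Windows ran from 250 bases before the annotated transcript start to 50 bases from it on, in the RefSeq annotation of the rat assembly GRCr8. Of 33469 such windows, 0.798% held 3 units and 15.9% held 2. A window was at hand for 8 of the 10 listed genes, Hsp90aa1 and Hsf1 being the others. Hsph1, Hspa8, Hspd1 and Hspe1 held 3 units, Hspb1 and Dnajb1 held 2 units, and Hspa1a and Hspa4 held neither. A match describes letters and does not show binding, and no match says only that these letters are not in this window. Windows of 5 genes follow because the results turn on these genes and they span the kinds found. All read 5′ to 3′ along the gene. Capitals mark the matches of 3 units, or those of 2 units where a window holds no 3. They lie at chr12:10427118-10427417 on the plus strand (Hsph1), chr9:64084077-64084376 on the plus strand (Hspe1), chr12:26432252-26432551 on the minus strand (Hspb1), chr19:41431092-41431391 on the minus strand (Dnajb1) and chr20:3859506-3859805 on the plus strand (Hspa1a).
Hsph1: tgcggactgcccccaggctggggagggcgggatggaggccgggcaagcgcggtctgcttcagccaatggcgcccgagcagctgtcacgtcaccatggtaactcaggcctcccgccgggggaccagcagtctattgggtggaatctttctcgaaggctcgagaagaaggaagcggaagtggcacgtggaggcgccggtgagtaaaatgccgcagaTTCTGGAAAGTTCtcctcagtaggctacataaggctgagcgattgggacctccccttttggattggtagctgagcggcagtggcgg
Hspe1: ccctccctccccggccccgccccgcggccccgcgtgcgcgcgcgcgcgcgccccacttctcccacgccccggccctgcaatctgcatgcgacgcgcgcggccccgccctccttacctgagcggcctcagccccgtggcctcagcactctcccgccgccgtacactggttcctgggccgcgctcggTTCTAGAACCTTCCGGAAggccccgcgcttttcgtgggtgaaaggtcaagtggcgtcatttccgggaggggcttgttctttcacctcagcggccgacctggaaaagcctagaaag
Hspb1: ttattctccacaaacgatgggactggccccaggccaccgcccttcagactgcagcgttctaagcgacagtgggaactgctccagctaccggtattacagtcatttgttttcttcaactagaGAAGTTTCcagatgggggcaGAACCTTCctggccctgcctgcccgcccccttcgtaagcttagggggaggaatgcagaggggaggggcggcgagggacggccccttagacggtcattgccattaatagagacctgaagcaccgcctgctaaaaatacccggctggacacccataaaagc
Dnajb1: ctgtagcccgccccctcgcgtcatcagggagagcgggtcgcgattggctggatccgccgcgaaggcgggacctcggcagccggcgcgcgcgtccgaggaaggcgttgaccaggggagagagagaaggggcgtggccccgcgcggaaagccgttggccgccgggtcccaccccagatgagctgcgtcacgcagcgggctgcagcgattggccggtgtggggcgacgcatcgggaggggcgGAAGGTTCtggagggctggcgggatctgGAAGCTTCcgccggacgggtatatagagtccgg
Hspa1a: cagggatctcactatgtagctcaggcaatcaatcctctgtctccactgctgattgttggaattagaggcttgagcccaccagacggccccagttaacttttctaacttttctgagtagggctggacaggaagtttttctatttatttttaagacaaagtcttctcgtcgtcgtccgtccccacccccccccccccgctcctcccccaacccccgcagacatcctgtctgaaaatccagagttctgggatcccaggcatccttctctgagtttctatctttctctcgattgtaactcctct

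In Hsph1 the 3 units began 36 bases before the start, and a separate pair of units, left in lower case, began 105 bases before it. In Hspb1 the pairs of units began 129 and 109 bases before the start, and in Dnajb1 one began 11 bases before the start and the other after it. Hspd1 and Hspe1 are transcribed away from each other from starts 290 bases apart, so their windows overlap by 211 bases. The capitals of the Hspe1 window, 18 bases at chr9:64084262-64084279, are the same bases that hold the matches of the Hspd1 window on the other strand.

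**Figure D1:**
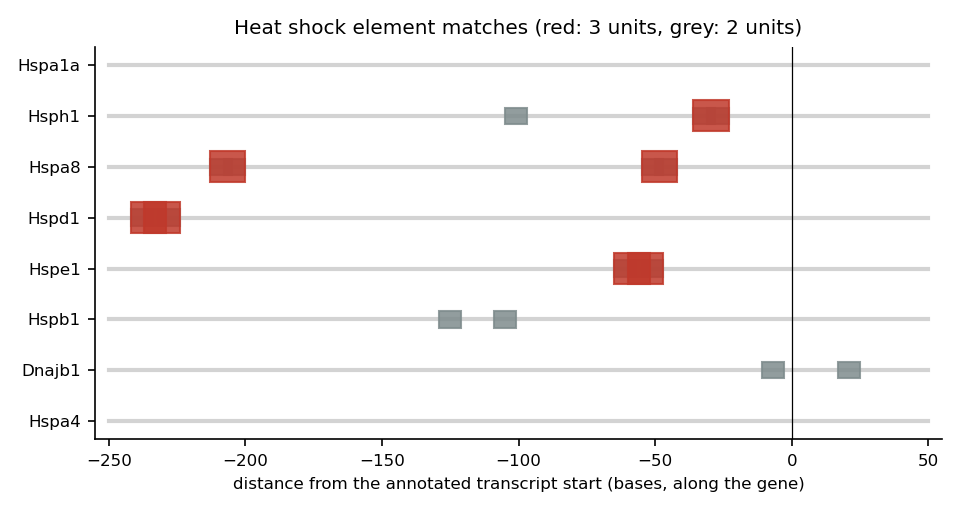
Positions of heat shock element matches in the promoter windows of 8 listed genes. The x axis is the distance in bases from the annotated transcript start, along the gene, and each grey line is a window. Red blocks are matches of 3 units and grey blocks of 2 units. Hsph1, Hspa8, Hspd1 and Hspe1 hold red blocks, and the lines of Hspa1a and Hspa4 are empty.

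Values are the deposited log2 expression values, on which a difference of 1 is a doubling, and levels are set against each other only within 1 gene. Array medians lay between 5.66 and 5.77. Genes of mammary epithelium and fat marked the tissue, with Krt18 between 7.78 and 11.0 and Adipoq, the adipocyte hormone adiponectin, between 11.4 and 12.7. The muscle actin Acta1 ran from 4.29 in the lowest array to 13.8 in the highest, so the glands held very unequal amounts of muscle RNA. In bulk tissue, fewer cells of a type and less RNA per cell cannot be told apart. Tests used limma on all probe sets with Benjamini-Hochberg adjustment, and a gene is said to have risen or fallen where the adjusted p was under 0.05.

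After NMU, 5 of the 8 genes fell in Cop glands at 6 h. Hspa1a, Hsph1, Hspd1, Hspe1 and Hspb1 fell, none rose, and Dnajb1, Hspa4 and Hsf1 were not called, where 3.29% of all genes fell and 4.68% rose. The median change of the 8 genes was -0.65 on the log2 scale, beside -9.87e-05 over all genes. In F344 glands at 6 h none of the 8 was called (limma, 1 at an unadjusted p under 0.05), their median change was -0.04 beside 0.07 over all genes, and 0.243% of genes fell and 0.495% rose.

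**Figure D2:**
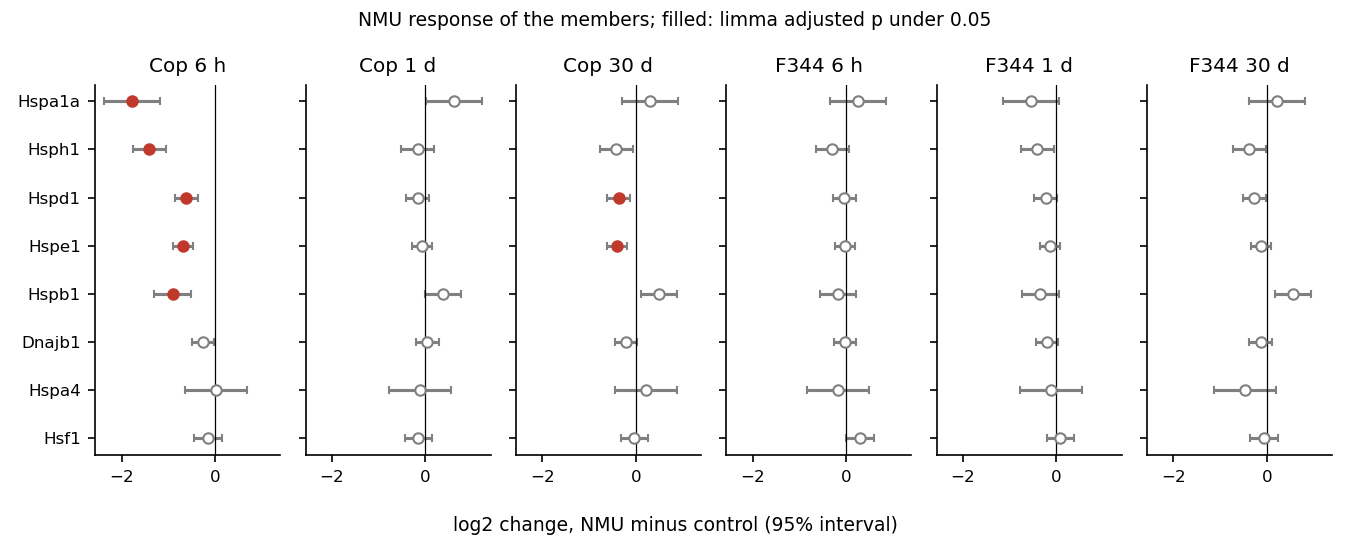
Log2 change of each gene, NMU minus control, on the x axis, with 95% intervals, in 6 panels by strain and time. Filled red points have a limma adjusted p under 0.05. The 5 filled points at Cop 6 h lie between -1.79 and -0.61, and the panels of F344 have none.

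Hspa1a, the inducible Hsp70, was the gene of widest range, with 2.29 between its highest and lowest group mean. In Cop glands at 6 h it read 8.12, 7.67 and 7.72 after NMU, against 9.27, 9.84 and 9.77 in controls. All NMU arrays lay below all control arrays. It fell by 1.79 on the log2 scale (SE 0.292, 95% interval -2.39 to -1.19), a 3.45-fold lower value, with a limma adjusted p of 0.000219. F344 glands at 6 h read 7.78, 7.65 and 7.92 after NMU, against 7.64, 7.60 and 7.38 in controls, a difference of 0.24 (adjusted p 0.721). The NMU values of F344 overlapped the Cop NMU values, and it was the Cop controls that stood apart. In the order of the 12 group means, Cop controls at 6 h came first at 9.62 and did not overlap the next, Cop NMU glands at 1 d at 8.49. The other 10 steps in the order were between groups whose arrays overlapped, down to F344 NMU glands at 1 d at 7.34.

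A second probe set reads Hspa1a together with Hspa1b, a symbol that the RefSeq table lists as a synonym of Hspa1a. It gave 8.30, 7.47 and 7.33 in Cop NMU glands at 6 h, against 8.21, 9.46 and 8.14 in Cop controls. These groups overlapped, since 1 NMU array was level with the lower controls. The difference was -0.91 (SE 0.364, adjusted p 0.153), so the fall of Hspa1a at 6 h was called by 1 of its probe sets only.

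Hsph1, the Hsp110 that works as exchange factor for Hsp70, read 8.59, 8.66 and 8.66 in Cop NMU glands at 6 h, against 9.99, 10.06 and 10.08 in Cop controls. It fell by 1.41 (SE 0.171, 95% interval -1.76 to -1.06), 2.65-fold, with an adjusted p of 4.58e-06. The gap between the groups was far wider than the SDs of 0.0401 in NMU and 0.0455 in control glands. Its second probe set fell by 1.38 (SE 0.219, adjusted p 0.00013). In F344 glands at 6 h Hsph1 read 9.16, 8.80 and 9.13 after NMU and 9.24, 9.50 and 9.24 in controls, a difference of -0.29 with an adjusted p of 0.454. The F344 groups did not overlap either, but the step between them was small.

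Hspa4, another Hsp110 family member, varied widely between replicates. In Cop glands at 6 h it was at 8.23, 8.17 and 7.07 after NMU and at 8.62, 7.27 and 7.52 in controls, with SDs of 0.655 and 0.717. The groups overlapped, and the interval of the difference, -0.65 to 0.68, spans a fall of the size seen for Hspd1 and a rise as large. No comparison called it.

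**Figure D3:**
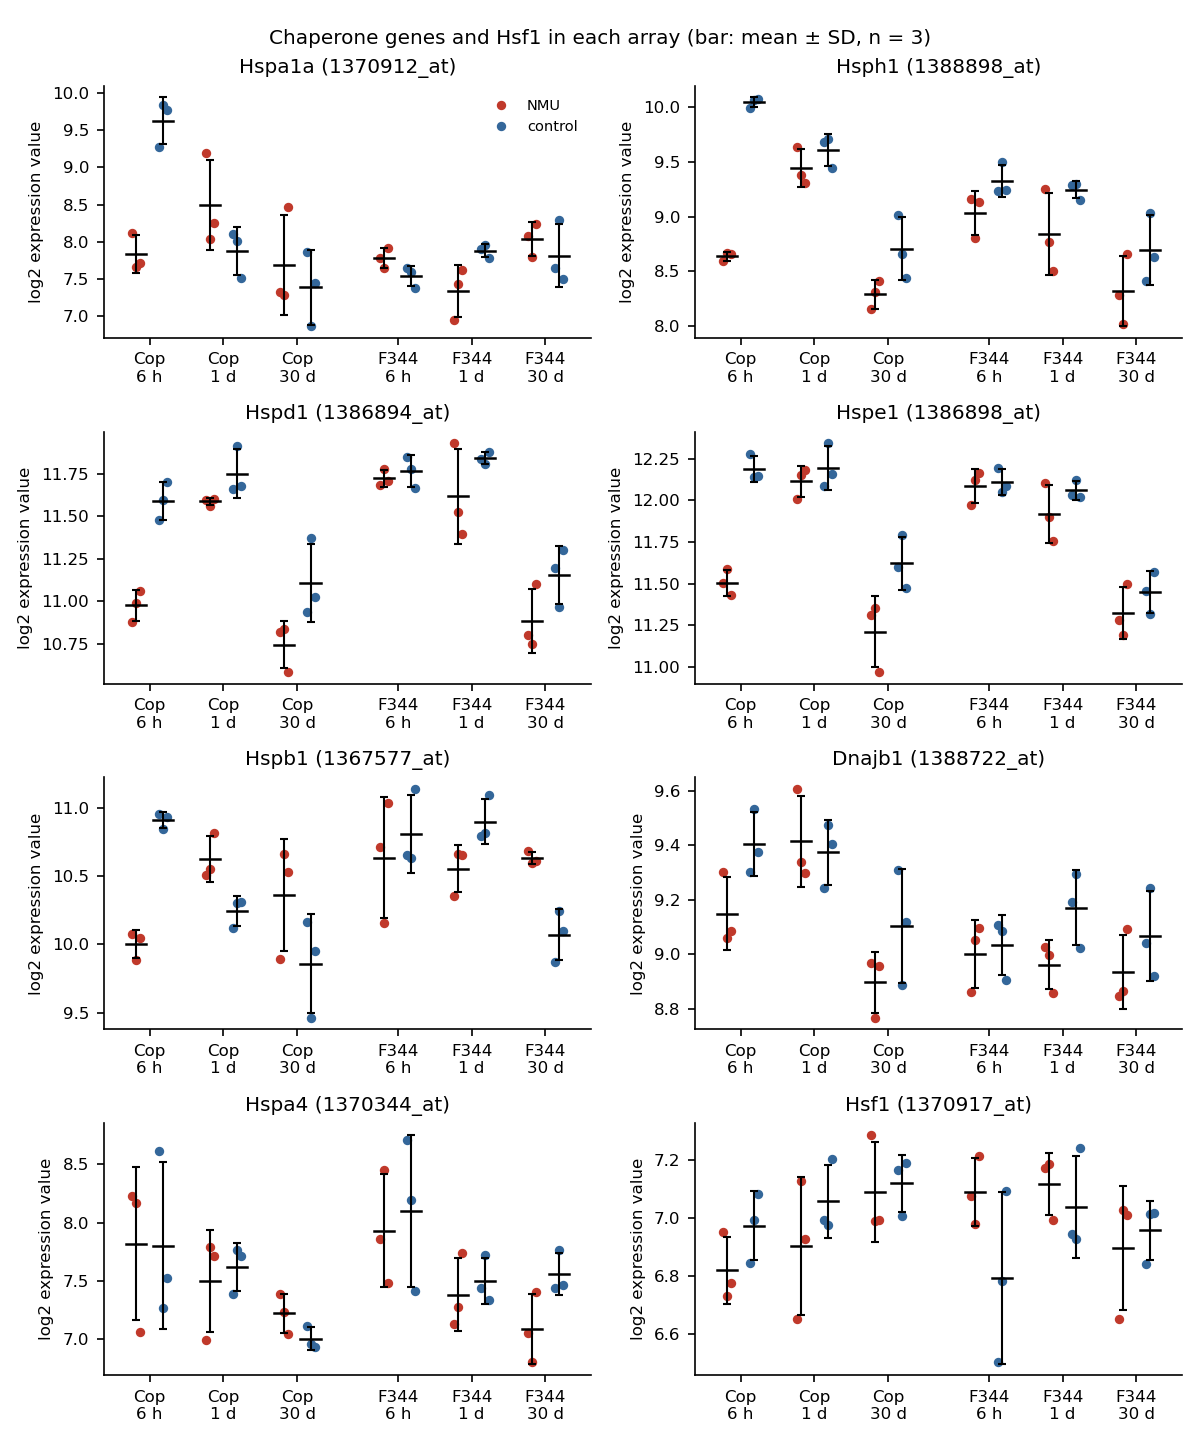
Log2 expression value of the 8 genes in each array, 1 panel a gene, by strain and time on the x axis. Red points are NMU arrays and blue points control arrays, and the black bars give the mean and SD of 3 arrays. The Cop control points of Hspa1a at 6 h, between 9.27 and 9.84, lie above all other points of that panel.

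Hspd1 and Hspe1 form the mitochondrial chaperonin, the Hsp60 barrel and its Hsp10 lid, and are the pair that shares the 18 bases given above. Hspd1 read 10.88, 10.99 and 11.06 in Cop NMU glands at 6 h, against 11.48, 11.59 and 11.70 in Cop controls. Hspe1 read 11.50, 11.59 and 11.43 in Cop NMU glands, against 12.28, 12.14 and 12.14 in Cop controls. In both genes every NMU array was below every control array, and the steps were of like size. Hspd1 fell by 0.61 (SE 0.120, 1.53-fold, adjusted p 0.00138) and Hspe1 by 0.68 (SE 0.105, 1.60-fold, adjusted p 9.24e-05). The differences in F344 glands at 6 h were -0.04 (95% interval -0.29 to 0.20) for Hspd1 and -0.02 (95% interval -0.24 to 0.19) for Hspe1.

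The chaperonin pair moved together over the series. Across the 12 group means Pearson's r of Hspd1 and Hspe1 was 0.956, and within groups, over the deviations of the 36 arrays, it was 0.743. Hsph1 and Hspe1 had an r of 0.906 over group means and of 0.159 within groups. Hspe1 and Hspa1a had an r of 0.332 over group means and of -0.578 within groups. All points share arrays and normalization, and these correlations are descriptions. The 5 lowest of the 12 group means were the same groups for Hsph1, Hspd1 and Hspe1, namely the 4 groups at 30 d and Cop NMU glands at 6 h.

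**Figure D4:**
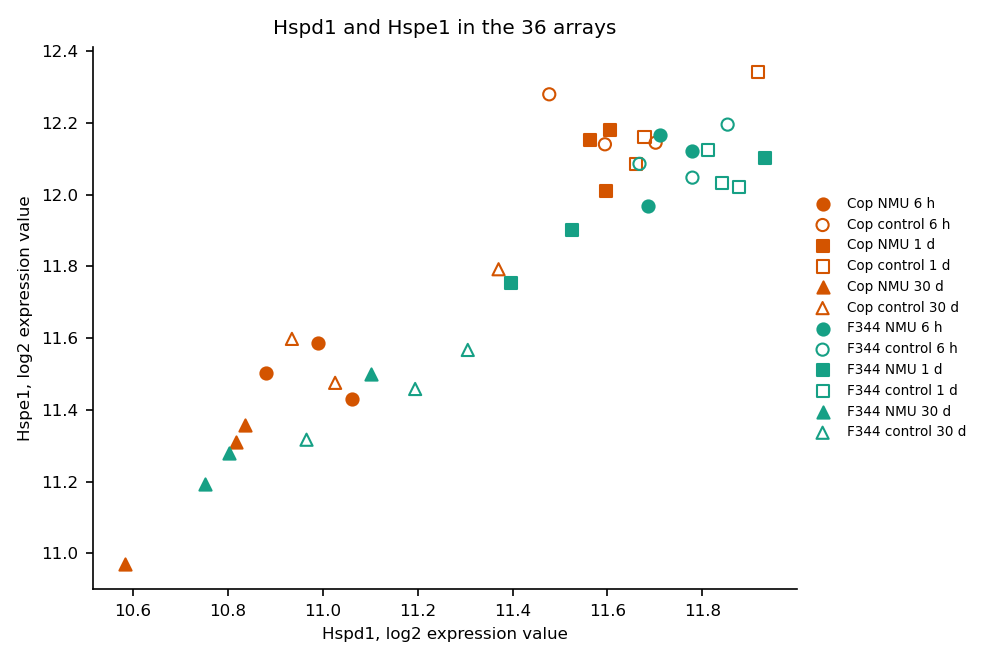
Hspe1 (y axis) against Hspd1 (x axis), log2 expression values, in the 36 arrays. Colour marks the strain, shape the time, and filled points are NMU glands. The Cop NMU arrays at 6 h, with Hspd1 between 10.88 and 11.06, lie with the arrays of 30 d at the lower left.

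Hspb1, the small heat shock protein Hsp27 that holds unfolded protein and binds actin filaments, read 10.08, 9.89 and 10.05 in Cop NMU glands at 6 h, against 10.96, 10.85 and 10.94 in Cop controls. No arrays overlapped, and the gene fell by 0.91 (SE 0.190, 95% interval -1.30 to -0.52), 1.88-fold, with an adjusted p of 0.00272. In F344 glands at 6 h the values were 10.72, 10.16 and 11.03 after NMU and 10.66, 10.63 and 11.14 in controls, which overlapped, and the difference was -0.17.

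Dnajb1, the inducible Hsp40, had the narrowest range of group means among the chaperones, 0.518. In Cop glands at 6 h it read 9.30, 9.06 and 9.09 after NMU, against 9.30, 9.53 and 9.38 in controls. The difference of -0.25 (SE 0.117) had an adjusted p of 0.23 and 1 NMU array reached the lowest control. Hsf1 itself read 6.95, 6.73 and 6.78 in Cop NMU glands at 6 h and 6.84, 6.99 and 7.08 in Cop controls, with overlap, a difference of -0.15 and an adjusted p of 0.646. Its 12 group means lay within 0.327 of each other, between 6.79 and 7.12. Hsf1 is regulated mainly through its protein, which was not measured here.

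Hspa8, the constitutive Hsc70, is read by a probe set that also carries Haus8l2. That probe set read, in F344 glands at 6 h, 12.86, 12.67 and 12.79 after NMU, against 13.09, 13.22 and 13.00 in controls. It fell by 0.33 (SE 0.0807, adjusted p 0.0468), and the groups did not overlap, but the call was lost whichever of the 6 arrays was left out. In Cop glands at 6 h it read 13.01, 12.99 and 12.91 after NMU, against 13.19, 13.20 and 13.24 in controls, a difference of -0.24 with an adjusted p of 0.0749 and again no overlap. The strain difference in response was 0.09 (SE 0.114, 95% interval -0.14 to 0.33).

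Hsp90aa1, the inducible Hsp90, is read by 2 probe sets that also carry the pseudogene Hsp90aa1-ps17. The brighter one read 11.90, 11.71 and 11.70 in Cop NMU glands at 6 h, against 12.13, 12.15 and 12.21 in Cop controls, without overlap (difference -0.39, SE 0.122, adjusted p 0.0504). The dimmer one differed by -0.36 (adjusted p 0.164). In Cop glands at 30 d the dimmer one read 10.33, 10.58 and 10.28 after NMU, against 11.17, 10.90 and 11.00 in controls. It fell by 0.63 there (SE 0.148, adjusted p 0.00909), a call lost without Cop NMU replicate 3, while the brighter one differed by -0.33 with an adjusted p of 0.0821.

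The response at 6 h differed between the strains for 3 of the 8 genes, all lower in Cop, where 0.252% of all genes were lower and 0.86% higher in this test. The Cop response minus the F344 response was -2.03 for Hspa1a (SE 0.413, 95% interval -2.88 to -1.18, limma adjusted p 0.01). It was -1.11 for Hsph1 (SE 0.242, 95% interval -1.61 to -0.62, adjusted p 0.016) and -0.66 for Hspe1 (SE 0.148, 95% interval -0.96 to -0.36, adjusted p 0.02). Hspd1 differed by -0.57 (SE 0.170, adjusted p 0.125) and Hspb1 by -0.73 (SE 0.268, adjusted p 0.254), so the main fit showed no strain difference for them. Hspd1 was called in a limma fit of the compared arrays alone (adjusted p 0.0187). Hspa1a kept the call whichever of the 12 arrays was left out, with a highest adjusted p of 0.0371. Hsph1 lost it with the replicate number as a block (adjusted p 0.06) and without F344 control replicate 3 or F344 NMU replicate 1. Hspe1 lost it without Cop NMU replicate 3, Cop control replicate 1, or replicate 2 or 3 of either F344 group. It also lost it with the muscle score (adjusted p 0.0607) or the T and NK cell score (adjusted p 0.0642) in the model, while Hspb1 gained a call with the muscle score (adjusted p 0.0468). The second probe set of Hsph1 gave -1.04 (adjusted p 0.126), and the shared probe set of Hspa1a gave -1.28 (adjusted p 0.334).

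Cell type markers moved with the fall in Cop glands at 6 h. Of 16 fibroblast and matrix genes 13 rose, and their summary score, the mean deviation of the markers on the log2 scale, lay between 0.621 and 0.693 in NMU glands, against -0.466 to -0.304 in controls. Of 17 T and NK cell genes 10 fell, with scores between -1.24 and -0.0632 in NMU glands and between 0.461 and 0.896 in controls. Of 12 adipocyte genes 4 fell, with scores between -0.483 and -0.152 in NMU glands and between 0.0335 and 0.233 in controls. Of 11 macrophage genes 2 rose, as did 2 of 3 red blood cell genes. The B cell, brown adipocyte and basal myoepithelial scores were lower in all NMU arrays than in all control arrays. The basal scores lay between -0.134 and 0.127 in NMU glands and between 0.265 and 0.416 in controls. Both measured neutrophil genes rose, with scores between 1.61 and 3.10 in NMU glands and between -0.793 and -0.0477 in controls. Both also rose in F344 glands at 6 h, with scores between 1.92 and 2.51 in NMU glands and between -0.266 and 0.215 in controls. In the same F344 glands T and NK cell scores were lower, between -0.490 and -0.442 after NMU, against -0.165 to 0.208 in controls. Basal scores were lower there as well, between -0.829 and -0.420, against -0.410 to -0.110. Luminal epithelial and endothelial scores were higher after NMU in F344 at 6 h, also without overlap.

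Muscle scores in Cop glands at 6 h lay between -0.585 and 0.714 after NMU and between -3.07 and -1.08 in controls, with 0 of 26 muscle genes called. With the muscle score in the model all 5 genes kept their call at Cop 6 h, and likewise with the T and NK cell score, although either score ended the call of Hspe1 in the strain difference. The muscle, the T and NK cell and the fibroblast scores each had no overlap between these arms. With the fibroblast and matrix score in the model none of the 5 genes kept its call, at adjusted p between 0.0672 for Hspb1 and 0.53 for Hspd1. The estimates there were -2.01 for Hspa1a, -1.36 for Hsph1 and -1.56 for Hspb1, close to or beyond those without the score, and -0.44 for Hspd1 and -0.41 for Hspe1, which were smaller. That model was chosen after seeing the data. The fibroblast list also differed between strains in its response at 6 h, 11 of 16 genes being higher in Cop, and none of the 3 genes kept the call of its strain difference in that model. Those estimates were -2.32 for Hspa1a, -1.06 for Hsph1 and -0.31 for Hspe1. In F344 glands at 6 h 2 of these 16 genes fell, with scores between -0.556 and -0.207 in NMU glands and between -0.156 and 0.0142 in controls. The part of the other marker lists in the fall was not tested.

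One day after NMU none of the 8 genes was called in either strain (limma, 1 in Cop and 1 in F344 at an unadjusted p under 0.05). In Cop 0.452% of all genes fell and 0.6% rose, and in F344 0.148% fell and 1.08% rose. Hspa1a in Cop read 9.19, 8.04 and 8.25 after NMU, against 8.11, 8.01 and 7.52 in controls, a difference of 0.62 with an adjusted p of 0.476. In F344 it read 6.95, 7.44 and 7.63 after NMU, against 7.90, 7.96 and 7.78 in controls, with no overlap but an adjusted p of 0.605 for the difference of -0.55. Hsph1 in Cop glands was at 9.64, 9.38 and 9.31 after NMU and at 9.68, 9.70 and 9.44 in controls, a difference of -0.17, so the step seen at 6 h was not there. The strain difference in response at 1 d called none of the 8 (limma, 2 at an unadjusted p under 0.05), where 0.269% of all genes were lower and 0.0174% higher, with 1.16 for Hspa1a (adjusted p 0.407).

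At 30 d the chaperonin pair was again lower after NMU in Cop glands. Hspd1 read 10.82, 10.84 and 10.58 in NMU glands, against 10.93, 11.37 and 11.03 in controls. Hspe1 read 11.31, 11.36 and 10.97 in NMU glands, against 11.60, 11.79 and 11.48 in controls. Neither pair of groups overlapped, but 1 control array of Hspd1 stood nearly level with the highest NMU array. Hspe1 fell by 0.41 (SE 0.105, adjusted p 0.0142) and Hspd1 by 0.36 (SE 0.120, adjusted p 0.0498). These were 2 of the 8 genes, where 6.36% of all genes fell and 4.84% rose. Hspd1 lost its call without replicate 2 or 3 of either group, and Hspe1 without control replicate 2 or NMU replicate 3. Without 1 array the count ran from 0 to 3.

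Other genes at 30 d in Cop differed without a call by the main probe set. Hsph1 read 8.15, 8.31 and 8.41 after NMU, against 9.01, 8.66 and 8.44 in controls, all lower, with a difference of -0.41 and an adjusted p of 0.121. The second probe set of Dnajb1 read 8.21, 8.19 and 8.06 after NMU, against 8.91, 8.46 and 8.64 in controls, and fell by 0.51 (SE 0.154, adjusted p 0.0329), a call kept in 2 of 6 fits with 1 array left out. Its main probe set differed by -0.21 with an adjusted p of 0.272, so the probe sets of Dnajb1 disagree on the call. Hspb1 went the other way, at 9.89, 10.67 and 10.53 after NMU and 10.16, 9.46 and 9.95 in controls, but the groups overlapped and the difference of 0.50 had an adjusted p of 0.088.

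In F344 glands at 30 d none of the 8 was called (limma, 3 at an unadjusted p under 0.05), where 3.65% of all genes fell and 0.686% rose. Hspd1 differed by -0.27 (adjusted p 0.212), Hspe1 by -0.12 and Hsph1 by -0.37 (adjusted p 0.231). Hspb1 read 10.69, 10.60 and 10.61 after NMU, against 9.87, 10.24 and 10.10 in controls, all higher, and the difference of 0.56 had an adjusted p of 0.0925. The strain difference at 30 d called none of the 8 and no gene at all (limma, 0 of the 8 at an unadjusted p under 0.05). In Cop glands at 30 d 7 of 16 fibroblast and matrix genes rose, with scores between 0.0399 and 0.772 in NMU glands and between -0.0304 and 0.187 in controls, and 8 of 17 T and NK cell genes fell, with scores between -1.94 and 0.642 in NMU glands and between 0.262 and 0.824 in controls. The scores of 3 other lists did not overlap between the arms. Of 6 milk genes 4 fell, with scores between -2.81 and -0.999 in NMU glands and between 0.154 and 2.05 in controls. Of 9 endothelial genes 7 rose, with scores between 0.477 and 0.976 in NMU glands and between -0.172 and 0.203 in controls. Of 11 macrophage genes 3 rose and 1 fell, with scores between 0.205 and 0.870 in NMU glands and between 0.0427 and 0.156 in controls. The part of these 3 lists in the result was not tested. With either the fibroblast or the T and NK cell score in the model neither Hspd1 nor Hspe1 was called.

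Control glands of the strains differed in 3 of the 8 genes at 6 h, all higher in Cop, where 13.1% of all genes were higher and 8.18% lower. Hspa1a at 9.27, 9.84 and 9.77 in Cop controls stood 2.08 above its 7.64, 7.60 and 7.38 in F344 controls (SE 0.292, limma adjusted p 1.31e-05). Hsph1 was 0.72 higher in Cop (SE 0.171, adjusted p 0.00412) and Dnajb1 0.37 (SE 0.117, adjusted p 0.026). All Cop arrays were above all F344 arrays in each. The shared probe set of Hspa1a was 1.29 higher in Cop (adjusted p 0.0143), and the brighter shared one of Hsp90aa1 0.41 (adjusted p 0.0174), calls kept in 4 and 2 of 6 fits with 1 array left out. The chaperonin genes and Hspb1 were not called, with differences of -0.18 for Hspd1, 0.08 for Hspe1 and 0.10 for Hspb1. Dnajb1 lost its call with the mean of its probe sets, with a muscle, T and NK cell or fibroblast score in the model, and without Cop control replicate 2 or F344 control replicate 3. Of 26 muscle genes 18 were lower in Cop controls at 6 h, with scores between -3.07 and -1.08 in Cop and between 1.67 and 2.79 in F344. The T and NK cell and the fibroblast scores did not overlap between these controls either. Nor did those of B cells, macrophages, luminal and basal epithelium, milk, endothelium and red blood cells, whose part in the result was not tested.

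The strain gap in Hspa1a was not seen in later controls. At 1 d Cop controls read 8.11, 8.01 and 7.52 and F344 controls 7.90, 7.96 and 7.78, with overlap and a difference of -0.01 (adjusted p 0.994). At 30 d the difference was -0.42 (adjusted p 0.589). At 1 d Hspb1 was called among the 8, where 6.79% of all genes were higher and 10.4% lower in Cop. It read 10.12, 10.30 and 10.31 in Cop controls, against 10.79, 10.82 and 11.09 in F344 controls, without overlap, a difference of -0.65 (SE 0.190, adjusted p 0.0176). It lost that call without Cop control replicate 1 or F344 control replicate 3 and with the muscle or the fibroblast score in the model, and 18 of 26 muscle genes were lower in Cop at 1 d as well. None of the 8 was called at 30 d (limma, 0 at an unadjusted p under 0.05), where 1.07% of all genes were higher and 1.6% lower in Cop.

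Within Cop controls Hspa1a was the gene of the 8 that differed between 1 d and 6 h. It fell by 1.75 at 1 d relative to 6 h (SE 0.292, adjusted p 0.00344), with all arrays of 1 d below all of 6 h, where 0.434% of all genes fell and 0.174% rose. The call was lost without control replicate 2 of 6 h (adjusted p 0.0587). The differences were -0.67 for Hspb1 (adjusted p 0.11) and -0.43 for Hsph1 (adjusted p 0.255). In F344 controls none of the 8 was called (limma, 0 at an unadjusted p under 0.05), where 0% of genes fell and 0.0521% rose, and Hspa1a differed by 0.34 (adjusted p 0.874). The Cop control arrays of 6 h thus enter the NMU comparison at 6 h, the strain difference in response, the strain comparison of controls and both time comparisons of Cop controls, which share them.

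Controls of 30 d, when the rats were older, were set against the early controls of 6 h and 1 d together. In Cop controls 5 of the 8 genes fell, where 6.53% of all genes fell and 1.95% rose. Hspa1a fell by 1.36 (SE 0.253, adjusted p 0.00102), Hsph1 by 1.12 (SE 0.148, adjusted p 1.1e-05), Hspd1 by 0.56 (SE 0.104, adjusted p 0.000861), Hspe1 by 0.57 (SE 0.0905, adjusted p 0.000138) and Hspb1 by 0.72 (SE 0.164, adjusted p 0.00649). Hspb1 lost its call without Cop control replicate 2 of 30 d (adjusted p 0.124), and Hspa1a was not called by its shared probe set (adjusted p 0.167). The shared probe sets of Hspa8 and the brighter one of Hsp90aa1 fell as well, with differences of -0.27 (adjusted p 0.0146) and -0.42 (adjusted p 0.0132), each kept in 7 of 9 fits with 1 array left out. Of 3 red blood cell genes 2 were also higher at 30 d, with scores between 0.146 and 0.922 at 30 d, against -0.609 to -0.438 at 6 h and -1.21 to -0.813 at 1 d, and their part in the result was not tested. Of 16 fibroblast and matrix genes 5 were higher, with scores between -0.0304 and 0.187 at 30 d, against -0.466 to -0.304 at 6 h and -0.339 to -0.153 at 1 d. Of 12 adipocyte genes 5 were lower. Luminal epithelial scores lay between 0.262 and 0.683 at 30 d, against -0.0365 to 0.183 at 6 h and -0.180 to 0.150 at 1 d. The part of the adipocyte and luminal lists was not tested. With the fibroblast, the muscle or the T and NK cell score in the model all 5 chaperone genes were called.

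In F344 controls 4 of the 8 genes fell at 30 d relative to 6 h and 1 d, where 15.4% of all genes fell and 16.4% rose. Hsph1 fell by 0.59 (SE 0.148, adjusted p 0.00303), Hspd1 by 0.65 (SE 0.104, adjusted p 2.42e-05), Hspe1 by 0.64 (SE 0.0905, adjusted p 4.42e-06) and Hspb1 by 0.79 (SE 0.164, adjusted p 0.000565). Hspa1a differed by 0.10 (adjusted p 0.812). In F344, 25 of 26 muscle genes were also lower at 30 d, with scores between -3.63 and -0.566 at 30 d and between 1.67 and 2.79 at 6 h, and 13 of 15 luminal epithelial genes were higher. With the muscle score in the model Hspb1 was no longer called (adjusted p 0.309), and Hsph1, Hspd1 and Hspe1 were. Adipocyte scores lay between -0.37 and -0.23 at 30 d, against 0.15 to 0.27 at 6 h and 0.22 to 0.40 at 1 d. Brown adipocyte and neutrophil scores were also lower at 30 d, and luminal, basal and milk scores higher, without overlap with the early controls. The part of these other lists in the result was not tested.

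Other chaperones were read from lists by compartment. At Cop 6 h, 6 of 37 other cytosolic chaperones and co-chaperones fell and 1 rose, where 3.29% of all genes fell and 4.68% rose. Ahsa1, which stimulates the ATPase of Hsp90, read 8.73, 8.62 and 8.79 after NMU, against 9.33, 9.39 and 9.48 in controls, and fell by 0.69 (SE 0.104, adjusted p 7.67e-05). Stip1, the adaptor that links Hsp70 to Hsp90, fell by 0.63 (adjusted p 0.00059), and Dnaja1, an Hsp40, by 0.54 (adjusted p 0.0114). Hspa2, an Hsp70 best known from the testis, rose by 1.09 (adjusted p 0.00316), at 6.08, 5.99 and 5.70 after NMU, against 4.84, 4.74 and 4.92 in controls. Its probe set was dim, with control values below the lowest array median of 5.66, and did not pass the stricter filter at the 60th percentile. Dnaja1 lost its call without NMU replicate 3 or control replicate 2 and with the muscle or T and NK cell score, and no call of these genes was kept with the fibroblast score. The list median was -0.04, near that of all genes.

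Of 15 endoplasmic reticulum chaperones 9 fell at Cop 6 h and none rose, with a median of -0.38, where 3.29% of all genes fell. Hspa5, the Hsp70 of this compartment, read 11.03, 10.91 and 10.94 after NMU, against 11.60, 11.86 and 11.83 in controls, and fell by 0.81 (SE 0.120, adjusted p 7.05e-05). Pdia4, a disulfide isomerase, fell by 0.70 (adjusted p 0.00108), Hsp90b1, the Hsp90 of this compartment, by 0.62 (adjusted p 0.00203) and Pdia6 by 0.37 (adjusted p 0.00534). With the fibroblast score in the model none of these 4 was called, and Hsp90b1 was not called with the T and NK cell score either (adjusted p 0.0683). In F344 at 6 h 1 of the 15 fell, the collagen chaperone Serpinh1, at 11.26, 11.41 and 11.53 after NMU, against 11.84, 12.15 and 11.93 in controls (difference -0.57, adjusted p 0.0408). That call was kept in 1 of the 6 fits with an array left out, the one without F344 NMU replicate 3. In Cop it read 12.05, 12.16 and 12.13 after NMU, against 11.82, 11.84 and 11.93 in controls.

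The strain difference in response at 6 h called 1 gene of each of these lists. For Ahsa1 it was -0.66 (SE 0.147, adjusted p 0.0197), and for Serpinh1 it was 0.82 (SE 0.191, adjusted p 0.0274), the opposite direction to the chaperones above. With the fibroblast score in the model that difference for Serpinh1 turned to -0.19 and no call was kept for either gene, nor was one kept with the muscle or the T and NK cell score. Ahsa1 kept its call in 7 and Serpinh1 in 4 of the 12 fits with 1 array left out. Of the 12 mitochondrial chaperones and proteases 2 fell at Cop 6 h, Dnaja3 by 0.38 (adjusted p 0.0152) and Hspa9 by 0.50 (adjusted p 0.0254), and 0 of the 13 subunits of the cytosolic chaperonin CCT and prefoldin were called, with a median of -0.19. Dnaja3 held in 3 and Hspa9 in 2 of 6 fits with 1 array left out. Both lost their call with the T and NK cell or the fibroblast score in the model. Dnaja3 also lost it in a fit of the compared arrays alone, and Hspa9 with the muscle score or the mean of its probe sets. Of 6 heat shock factors and their modulators 0 were called by limma in any NMU comparison.

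**Figure D5:**
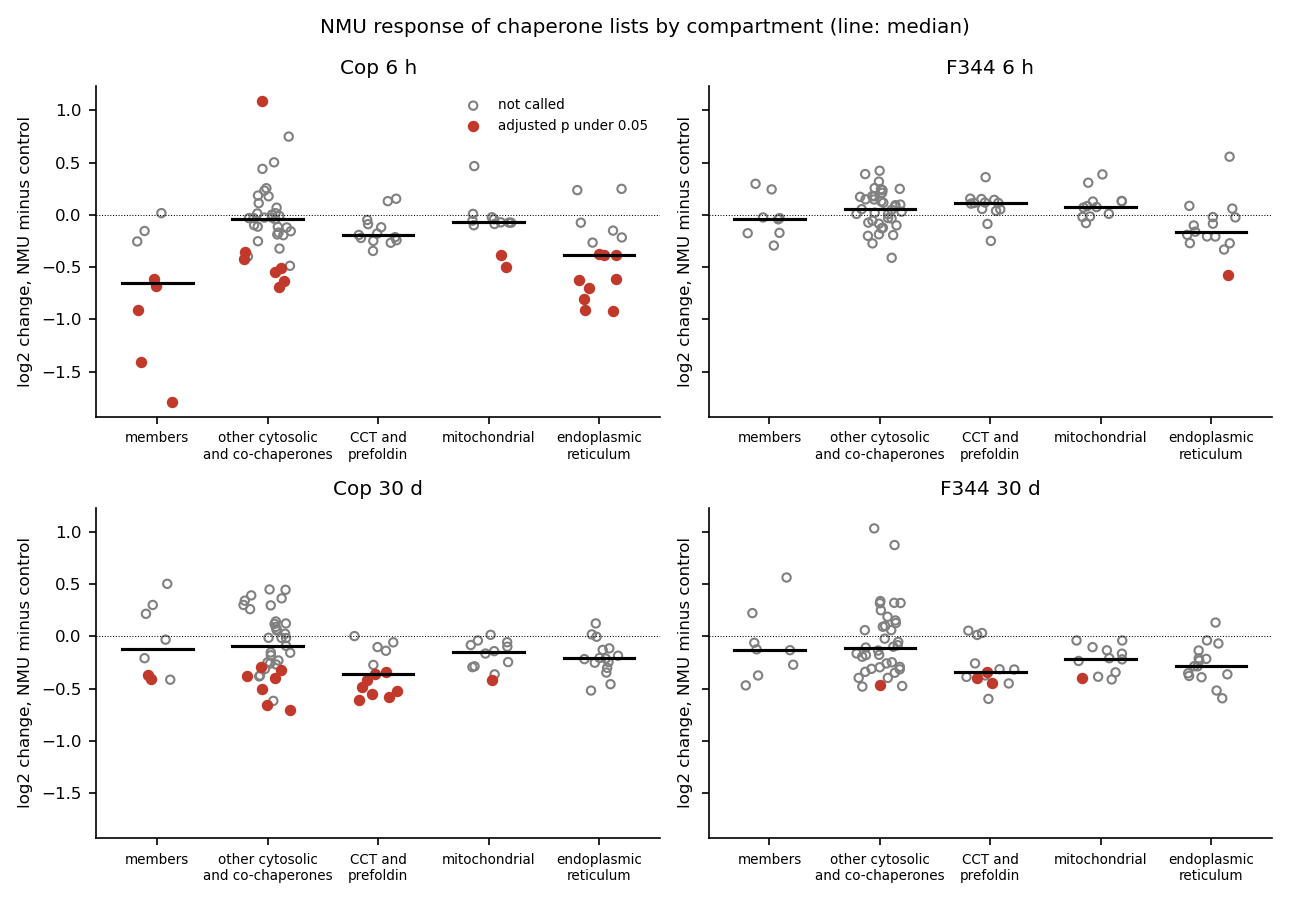
Log2 change after NMU (y axis, NMU minus control) of the 8 genes and of 4 lists of other chaperones, in Cop and F344 at 6 h and 30 d. Each point is a gene, red points have an adjusted p under 0.05 and lines are medians. At Cop 6 h the lines of the 8 genes and of the endoplasmic reticulum list lie at -0.65 and -0.38, and at Cop 30 d the CCT and prefoldin line lies at -0.36.

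At 30 d the cytosolic chaperonin list was lower. In Cop glands 8 of the 13 CCT and prefoldin subunits fell and none rose (median -0.36), where 6.36% of all genes fell and 4.84% rose. The CCT ring folds actin and tubulin. Cct2 read 9.94, 9.75 and 9.50 after NMU, against 10.35, 10.23 and 10.42 in controls, and fell by 0.60 (adjusted p 0.000697). Cct3 fell by 0.52 (adjusted p 0.000977), Cct6a by 0.55 (adjusted p 0.00448) and Cct5 by 0.42 (adjusted p 0.00738). Cct2 and Cct3 kept their calls whichever array was left out, while Cct6a and Cct5 lost theirs without Cop NMU replicate 3. In a fit of the compared arrays alone no call of these was kept, and with the T and NK cell or the fibroblast score in the model those of Cct2 and Cct3 were. In F344 glands 3 of the 13 fell (median -0.34), where 3.65% of all genes fell, Cct3 by 0.40 (adjusted p 0.0144), Cct2 by 0.44 (adjusted p 0.0148) and Tcp1 by 0.34 (adjusted p 0.0362). Cct2 and Cct3 lost those calls without F344 NMU replicate 1 or 2 or F344 control replicate 1, and Tcp1 held in 2 of 6 such fits. All of these F344 calls were also lost in a fit of the compared arrays alone and with the muscle or the fibroblast score. Tcp1 lost its call with the T and NK cell score as well.

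In the same Cop glands 7 of 37 other cytosolic chaperones fell and none rose, where 6.36% of all genes fell, among them Ppid, an Hsp90-bound cyclophilin, by 0.50 (adjusted p 0.00782), and Chordc1, an Hsp90 co-chaperone, by 0.70 (adjusted p 0.0107), and both lost their call without NMU replicate 3. Hspbp1, an exchange factor of Hsp70, fell by 0.39 (adjusted p 0.0214) and held in 3 of 6 fits with 1 array left out, and Ptges3, the Hsp90 co-chaperone p23, fell by 0.29 (adjusted p 0.0318) and held in 2. Cirbp, a cold-inducible RNA-binding protein, rose by 1.14 (adjusted p 0.0292), at 10.15, 9.86 and 9.69 after NMU and 8.32, 9.30 and 8.66 in controls, and its call held in 1 of 6 such fits. In F344 at 30 d Stip1 fell by 0.47 (adjusted p 0.0204), the 1 gene of the cytosolic list called there, and held in 2 of 6. The mitochondrial protease subunit Clpp fell by 0.41 in Cop (adjusted p 0.021) and by 0.40 in F344 (adjusted p 0.0488), and held in 4 and 2 of 6 fits. Ppid, Chordc1, Hspbp1, Ptges3, Cirbp and Clpp in Cop were not called in a fit of the compared arrays alone, nor with the T and NK cell or the fibroblast score in the model. Stip1 and Clpp in F344 were not called in such a fit either, nor with the muscle, the T and NK cell or the fibroblast score. Quantile normalization also ended the call of Clpp in F344.

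Likeness in profile was measured by Pearson's r over the 36 arrays with the mean deviation profile of the 7 chaperones read by their own probe sets. The genes most like it were Msmo1, a sterol synthesis enzyme (r 0.87), Ahsa1 and Miga2 (r 0.85 each), Dph5 and the mitochondrial import chaperone Timm10 (r 0.82 each), and Timm29, Ciapin1, Fastkd5, Hspa5 and Hsd17b7 (r 0.81 each). Msmo1 fell by 0.88 in Cop glands at 6 h (adjusted p 0.00101). Hspa1a alone was most like Gprasp1 (r 0.73), the Hsp40 gene Dnaja1 (r 0.70), Kif13a (r 0.61), Tollip and Dnajb2 (r 0.59 each). Among the 8 genes, Hsph1 followed the profile of the others most closely (r 0.880) and Hspe1 next (r 0.771), while Hsf1 did not follow it (r -0.147). Dnajb1 tracked Hspa1a both over group means (r 0.667) and within groups (r 0.608).

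The promoter matches were set beside the fall in Cop glands at 6 h. Of the 5 genes that fell, Hsph1, Hspd1 and Hspe1 held 3 units, Hspb1 held 2, and Hspa1a held none in the window searched. The matches of Hspd1 and Hspe1 are the same bases. Of the listed genes not called there, Hspa8, read by its shared probe set, held 3 units, Dnajb1 held 2 and Hspa4 held neither. Among other chaperones, 3 units stood in the windows of 2 of 31 cytosolic genes, Dnaja1 and Chordc1, of Cct4 among 13 CCT and prefoldin genes and of Serpinh1 among 13 endoplasmic reticulum genes, and 0 of 10 mitochondrial genes held them. The genes with 3 units thus include Dnaja1, which fell at Cop 6 h, and Serpinh1 and Cct4, which were not called there. The result of Chordc1 at Cop 6 h is not given here, so this reading is incomplete.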

How the data were processed

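RNA of mammary glands was read on 36 Affymetrix rat arrays, 3 arrays for each of 12 groups of strain, treatment and time. Per the labels' protocols, RNA was prepared with the Qiagen RNeasy Maxi kit, and 1 ug of it was turned into biotinylated cRNA by the Affymetrix procedure. GCOS is named in the submitters' processing notes, with no version. The deposited values are the authors' log2 expression values per probe set, and the sources used here do not name the summary or normalization method. They were used without further normalization.

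The table held 31099 probe sets, of which 20832 carried 1 symbol, 436 several and 9831 none in GEO's platform annotation, with symbols updated through Entrez IDs to RefSeq (GRCr8). Probe sets brighter than the 40th percentile of an array, on 3 or more arrays, were tested, which left 20749. A gene was represented by its 1-symbol probe set of highest mean (11509 genes).

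With limma 3.58.1 (R 4.3.3), 12 group means were fitted over all arrays (lmFit, eBayes with trend and robust options, two-sided). The p-values of each of 16 comparisons were adjusted by Benjamini-Hochberg over all probe sets tested. The fit was tested on simulated data. The labels name biological replicates without further detail, so whether each array stands for a separate animal is not known. The p-values measure the spread between arrays, and the number of arrays limits precision. F344 control replicates 1 and 2 of 1 d were the closest pair (root mean square log2 difference 0.163, next 0.232) and were kept as separate arrays.

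The members and the lists of other genes were chosen with earlier results of these data known, and the members' counts are read beside those over all genes. Named genes are all listed members, from each list at most the 4 called genes of smallest p in a comparison, and the 10 and 5 genes of highest correlation with the profile and with Hspa1a. Probe sets with a second symbol were kept out of the counts.

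NMU and control arrays share replicate numbers in the labels. Deviations from group means of same-numbered arrays correlated at 0.114, 0.142 and 0.435 in Cop at 6 h and at 0.202, 0.424 and 0.315 in Cop at 1 d, all over 0.1, and not in all pairs of the other strains and times. A fit with the replicate number as a block was therefore set beside the main one. Other alternatives were quantile normalization, filters, a floor, the empirical Bayes options, the compared arrays alone, averaged probe sets per gene, cell type scores as covariates and leaving out each array.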

Additional observations from a re-analysis of the deposited data

Results flagged for a closer look

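The NMU response at 6 h differed between the strains by a test of the difference itself (limma, Cop response minus F344 response) for 5 of the genes named. It was -2.03 for Hspa1a, whose NMU response was -1.79 in Cop and 0.24 in F344. It was -1.11 for Hsph1, with -1.41 in Cop and -0.29 in F344, and -0.66 for Hspe1, with -0.68 in Cop and -0.02 in F344. Among the other chaperones it was -0.66 for Ahsa1, the stimulator of Hsp90, and 0.82 for Serpinh1, the collagen chaperone. All 5 rest on the same 12 arrays, and the Cop controls of 6 h enter each of them.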

How the results depend on the processing

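Of 24 called results of the 8 genes over 16 comparisons, 9 were called under every alternative tried, 16 whichever array was left out, and 0 changed direction. Of 104 results not called, 40 changed sign under some alternative. The count of 5 genes that fell at Cop 6 h was 5 whichever array was left out and 5 with the replicate block, and 0 with the fibroblast and matrix score as a covariate, where the estimates of Hspa1a (-2.01), Hsph1 (-1.36) and Hspb1 (-1.56) were close to or beyond the main ones. That score was added after seeing the data, as were the reading of 10 genes and of Hspa1a through shared probe sets. The 3 genes with a strain difference at 6 h were 1 to 3 without 1 array, 2 with the replicate block, where Hsph1 was lost (adjusted p 0.06), 2 with the T and NK cell score, where Hspe1 was lost (adjusted p 0.0642), 3 with the muscle score, where Hspe1 was lost (adjusted p 0.0607) and Hspb1 gained (adjusted p 0.0468), and 0 with the fibroblast score. A limma fit of the compared arrays only kept these 3 strain differences and added that of Hspd1 (adjusted p 0.0187). The block, which was run for the NMU comparisons and strain differences in response only, changed no other call of the 8 genes there. The 2 genes called at Cop 30 d were 0 to 3 without 1 array, 1 with no filter, 1 without the trend and robust options, 3 with the muscle score (1 higher), 0 in a fit of the compared arrays only, 0 with the T and NK cell score and 0 with the fibroblast score. In controls, the 3 genes that differed between strains at 6 h were 2 to 3 without 1 array, and the 1 gene at 1 d was 0 to 1 without 1 array, 0 with the muscle score and 0 with the fibroblast score. The 1 gene of Cop controls that differed between 1 d and 6 h was 0 to 1 without 1 array, 2 with the muscle score, 2 with the fibroblast score, 2 in a fit of the compared arrays only and 0 with the shared Hspa1a probe set. At 30 d against the early controls the counts were 4 to 6 in Cop and 4 to 4 in F344 without 1 array. In the other 8 comparisons they were 0 to 0. With Hspa8 and Hsp90aa1 read through shared probe sets, 1 gene, Hspa8, fell at F344 6 h. Serpinh1 changed direction in its strain difference at 6 h, to -0.19 with the fibroblast score. Its call there and that of Ahsa1 were also lost with the muscle and with the T and NK cell score. The causes of these changes were not tested. The spread of Hspa4 (SD up to 0.717 at Cop 6 h) limits what differences could be seen for it. Signal over background was not analysed here.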
